A study of Mus musculus with 2 samples.

Results

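The 10 genes described here are Arg1, Retnla, Chil3, Mrc1, Cd163, Trem2, Saa3, Spp1, Thbs1 and Vegfa. They were chosen by name as genes of the alternatively activated, wound healing or pro-angiogenic state of tumor macrophages, and they are 10 of the 27998 genes in the deposited table. All 10 were found in both libraries. The cells were live CD45+ leukocytes, sorted from tumors of the mouse melanoma line B16 that had grown under the skin, and were profiled by droplet-based scRNAseq of 3′ ends. There was 1 library from mice given h219-LLG, a humanized blocking antibody to human LAIR1 whose Fc part was mutated to remove effector functions, and 1 library from mice given the isotype control antibody. Both groups of mice were 6 to 8 weeks old on a C57BL/6 background, carried the Vav-cre human LAIR1 transgene and lacked mouse LAIR1 (mLAIR1-/-). The Vav promoter drives Cre in hematopoietic cells, where the human receptor stands in for the mouse one. The methods for this tumor model give 3 antibody doses of 10 mg/kg, spaced 4 days apart and starting on day 5, with tumors taken on day 16. How many mice went into a library is not stated in the sources used here. With 1 library per condition there was no replicate, so no test was run and every interval below covers counting error only.

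LAIR1 is an inhibitory receptor of leukocytes that binds collagens, C1q and related proteins. Macrophages exposed to IL-4 or IL-13 signal through the transcription factor STAT6 and take up the state known as alternative activation or M2, which in mice is recognized by Arg1, Retnla, Chil3 and Mrc1. Macrophages of tumors can also turn on Spp1, Thbs1 and Vegfa, secreted proteins tied to matrix remodeling and blood vessel growth, and low oxygen is a known inducer of Vegfa and Arg1.

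The Retnla and Saa3 promoters are shown because these genes had the highest ratios between the libraries in macrophages, and because both hold a match to a C/EBP motif. Sequences are from RefSeq on GRCm38.p6, read 5′ to 3′ on the strand of the gene. They run from 250 bases before the RefSeq start to the base before the gene start of the GENCODE annotation, and capitals mark the motif matches. The Retnla stretch is chr16:48842359-48842550 on the plus strand, with a STAT6 match (TTC and GAA with 4 bases of any kind between them) followed by a C/EBP match (TTGC and AA with 2 bases between them). The Saa3 stretch is chr7:46715701-46715926 on the minus strand, with a C/EBP match read on the opposite strand.
Retnla: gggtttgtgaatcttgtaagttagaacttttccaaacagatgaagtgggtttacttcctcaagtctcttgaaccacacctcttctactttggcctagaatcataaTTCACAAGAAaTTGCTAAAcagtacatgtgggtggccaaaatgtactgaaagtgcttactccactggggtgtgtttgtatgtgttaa
Saa3: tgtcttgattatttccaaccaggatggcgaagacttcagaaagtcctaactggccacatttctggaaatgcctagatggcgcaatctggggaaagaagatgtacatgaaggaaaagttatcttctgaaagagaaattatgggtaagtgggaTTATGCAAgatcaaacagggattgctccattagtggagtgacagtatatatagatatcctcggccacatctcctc
Over all 32851 RefSeq windows of the 250 bases before a RefSeq start, both strands searched, 5.85% held the STAT6 motif and 9.56% the C/EBP motif. For 8 of the genes there were 10 such windows, since Spp1 and Vegfa had more than 1 each. A gene was counted if any of its windows matched, while the percentages count windows. Of these 8 genes, 1 held the STAT6 motif (Retnla) and 3 the C/EBP motif (Retnla, Saa3 and Spp1). The hypoxia response motif ACGTG was in 1 of them (Vegfa), against 16.6% of all windows, and the NF-kappaB motif, GGGA and CC with 4 bases between them, in 3 (Cd163, Chil3 and Mrc1), against 17.6%. The Spp1 and Vegfa matches lay in a window inside the gene, and the window just before each of these genes held none of the motifs. A match is a description of the letters only. Arg1 and Thbs1 are named only.

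On mm10, Arg1 lies at chr10:24915221-24927484, Retnla at chr16:48842551-48844461, Chil3 at chr3:106147554-106167564, Mrc1 at chr2:14229392-14332057 and Cd163 at chr6:124304656-124330527. Trem2 lies at chr17:48346401-48354147, Saa3 at chr7:46711998-46715700, Spp1 at chr5:104435118-104441050, Thbs1 at chr2:118111876-118127133 and Vegfa at chr17:46016993-46032369. Arg1, Chil3, Saa3 and Vegfa are on the minus strand and the other 6 on the plus strand.

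The h219-LLG library held 8807 barcodes and 48834592 UMIs (unique molecular identifiers, tags that mark each captured RNA molecule), and the control library 6133 barcodes and 40339654 UMIs. After filters and doublet removal 6909 h219-LLG and 5332 control cells were kept, with medians of 4869 and 5658.5 UMIs. Barcodes with at least 10% mitochondrial UMIs were 15.2% of the h219-LLG and 8.17% of the control library, and 13 barcode sequences were shared. Cells were assigned by UMIs of marker genes. The gate for C1q macrophages (C1qa, C1qb and C1qc) held 159 h219-LLG and 102 control cells with medians of 5434 and 3892 UMIs, and the macrophage markers Adgre1, Csf1r, Fcgr1 and Apoe, which the gate did not use, were found in both libraries. The gate for Spp1 or Arg1 macrophages, applied after it, held 47 and 28 cells. It uses 2 of the 10 genes, so high Spp1 or Arg1 in it, and low Spp1 or Arg1 in the monocytes gated after it, is set by the rule. Monocyte gates held 249 and 136 cells and dendritic cell gates (conventional and migratory) 107 and 48 cells. A pool of macrophages and monocytes gated without any of the 10 genes held 465 and 278 cells. Myeloid barcodes with more than 2 B, T or NK marker UMIs were left out of these gates, and 130 h219-LLG and 85 control ones with T cell UMIs were summed on their own.

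Where the UMIs of the 10 genes were found differed from gene to gene. Chil3 was mostly in monocytes, which held 69.6% of its h219-LLG UMIs and 65.0% of its control UMIs, while C1q macrophages held 4.22% and 5.16%, so its name as a gene of tumor macrophages went mostly with other cells. Saa3 was in C1q macrophages in the h219-LLG library, 78.8% of its UMIs against 21.7% in the control library. Nearly all of those UMIs lay in 13 cells that also held markers of serous cavity macrophages, as described below. Retnla UMIs were in C1q macrophages for 55.4% and 67.7%. The myeloid barcodes with T cell UMIs held 52.0% of h219-LLG and 47.9% of control Arg1 UMIs, 41.4% and 44.2% of Mrc1, and 33.5% and 40.0% of Spp1, so the gates below describe only a part of the UMIs of these genes.

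**Figure D1:**
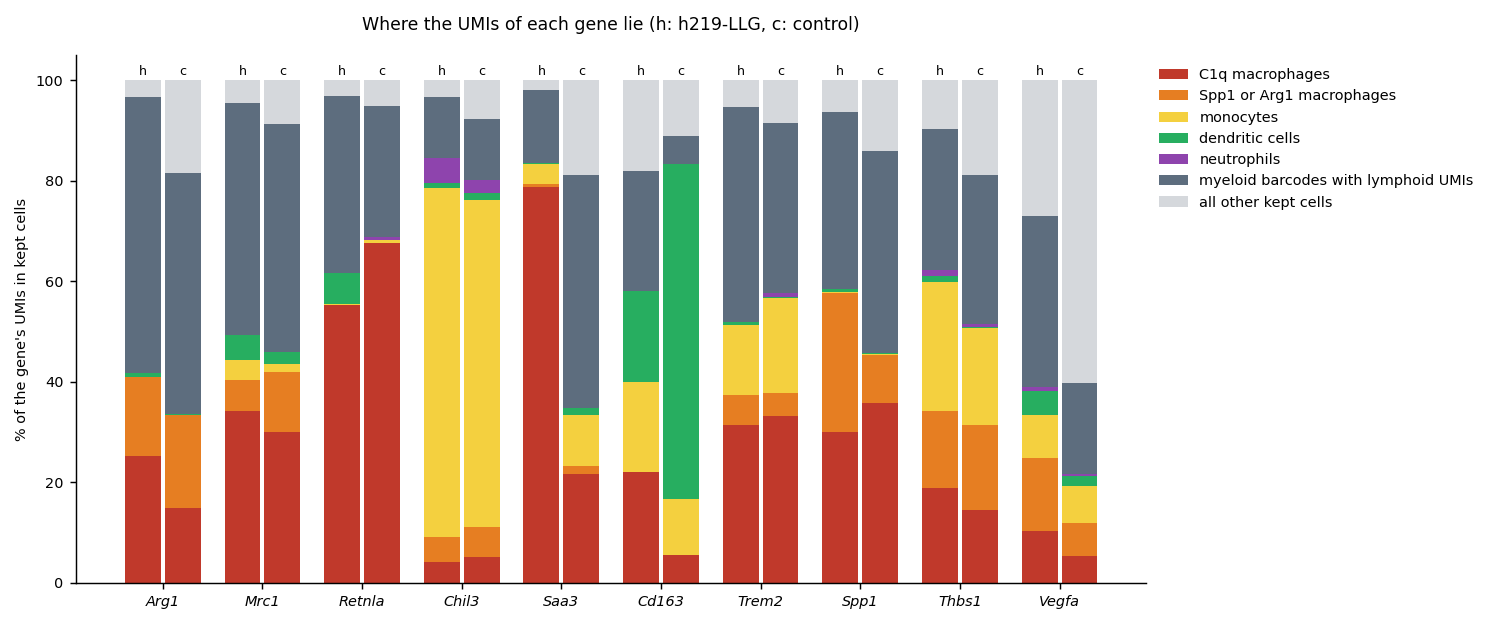
Share of each gene's UMIs (percent of the library's kept cells) by gate, with the h219-LLG library (h) left of the control library (c) and with plasmacytoid cells counted among the dendritic cells. Chil3 is mostly in monocytes in both libraries (69.6% and 65.0%), and Saa3 is mostly in C1q macrophages in the h219-LLG library only (78.8%, against 21.7% in the control library).

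In C1q macrophages 9 of the 10 genes were measured, which means at least 50 UMIs over both libraries, and the ratio of h219-LLG over control was above 1 for 4 and below 1 for 5. Of all genes measured in the gate, 60.1% were above 1. Retnla and Saa3 were at least 2-fold higher with h219-LLG, and at least 2-fold higher were 7.36% of the 4753 genes measured in the gate. None of the 9 was at least 2-fold lower, against 1.33% of the genes. Their median log2 ratio was -0.29, beside 0.12 over all measured genes. So the 9 measured genes did not share a direction in these cells.

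**Figure D2:**
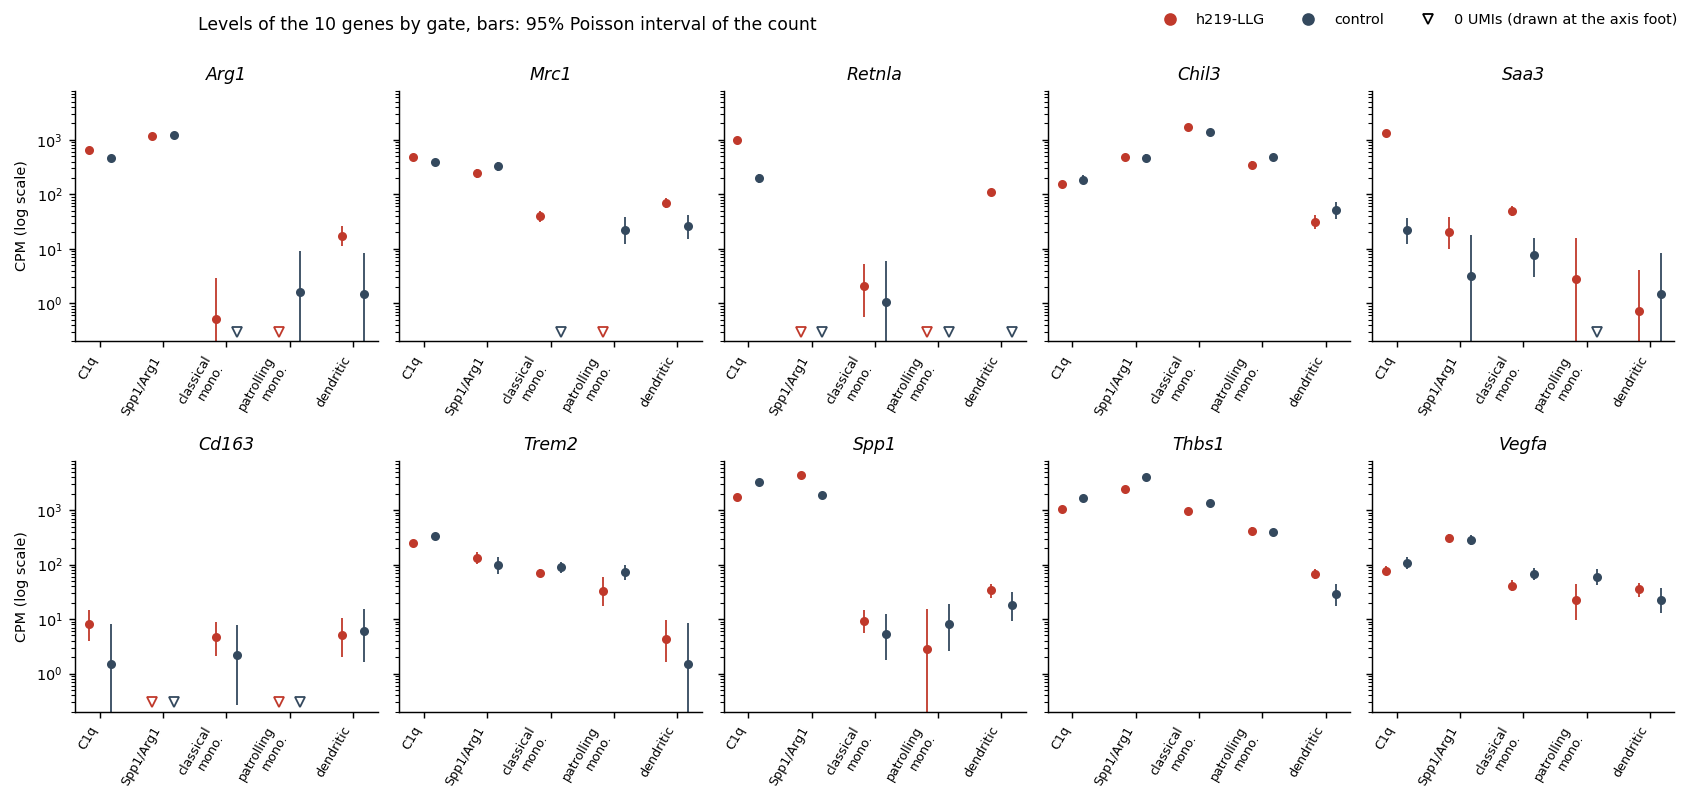
Level of each gene as CPM, its UMIs scaled to the total UMIs of the gate (log axis) in 5 gates, with h219-LLG left of control. Bars are exact 95% Poisson intervals for counting error and open triangles mark gates with 0 UMIs. In C1q macrophages Saa3 stood at 1359 CPM with h219-LLG and 22.2 CPM in control.

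Arg1 encodes arginase 1, which breaks down the arginine that T cells and nitric oxide synthesis need. In C1q macrophages it had 909 UMIs with h219-LLG and 318 in control, or, per 1000000 UMIs of the gate (CPM), 665.4 (95% exact Poisson interval 622.8 to 710.1) and 470.8 CPM (420.5 to 525.5). The ratio was 1.41 (1.24 to 1.61). A few cells carried much of it: the 3 highest h219-LLG cells held 163, 155 and 142 UMIs, and the 3 highest control cells 166, 38 and 28. With the top cell of each library left out the ratio was 2.40. Arg1 was found in 23.3% of h219-LLG and 18.6% of control C1q macrophages, against 0.492% and 0.420% of B cells, a type that should lack it, with medians of 3502 and 4247 UMIs. The Spp1 or Arg1 macrophages had 563 and 391 Arg1 UMIs, or 1156 and 1241 CPM, a ratio of 0.93 whose interval (0.82 to 1.06) held 1. In the pool gated without it, the ratio was 1.31 (1.19 to 1.43). Arg1 was also counted outside the macrophage gates, with 57 UMIs in h219-LLG and 321 in control T cells (1.59% and 15.1% of the library's Arg1 UMIs) and 45 and 62 in ungated cells. The 3 highest control T cells held 140, 140 and 23 of the 321, and 1 h219-LLG T cell held 29 of the 57. Only 0.876% of h219-LLG and 0.703% of control T cells had an Arg1 UMI. Dendritic cells held 24 h219-LLG UMIs, all in 1 cell, and 1 control UMI.

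Retnla encodes RELMα, a small secreted protein induced by IL-4. It came from very few cells, so its ratio describes single cells more than a population. In C1q macrophages 5 h219-LLG cells and 3 control cells had any UMI. Of 1330 h219-LLG UMIs, 665 and 656 lay in 2 cells, and of 132 control UMIs, 130 lay in 1 cell. The levels were 973.6 and 195.4 CPM, a ratio of 4.98 (4.16 to 6.00). The 2 h219-LLG cells held 14539 and 16942 UMIs in all, so Retnla was 4.57% and 3.87% of their RNA, and they had 16 and 28 Mrc1 UMIs with no Arg1 or Spp1 UMI. Retnla had 0 UMIs in the Spp1 or Arg1 macrophages of either library, which by the limit of 3 counts allows a UMI in up to 6.38% of h219-LLG and 10.7% of control cells. This limits cells with a UMI, not cells that express the gene. In dendritic cells 149 UMIs were found in 1 h219-LLG cell and 0 in the control cells, at least 24.0-fold higher against a floor of 3 counts in the control gate. The share of B cells with a Retnla UMI was 1.03% with h219-LLG and 0.0601% in control.

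Chil3 encodes Ym1, a chitinase-like lectin made by monocytes, neutrophils and IL-4 treated macrophages. In monocytes it had 3445 UMIs with h219-LLG and 1588 in control, or 1494 CPM (1445 to 1545) and 1026 CPM (975.9 to 1077), a ratio of 1.46 (1.37 to 1.55). It was spread over many cells, 69.1% and 63.2% of monocytes, and the top cells held 92 and 111 UMIs. The makeup of the gate differed, with 199 classical and 50 patrolling monocytes with h219-LLG and 69 and 67 in control. Within classical monocytes Chil3 stood at 1706 and 1384 CPM, a ratio of 1.23 (1.16 to 1.32). Within patrolling monocytes it stood at 347.8 and 492.1 CPM, a ratio of 0.71 (0.57 to 0.87), so the direction differed between the 2 kinds of monocyte, a difference that was not tested. In C1q macrophages Chil3 had 209 and 126 UMIs, or 153.0 and 186.5 CPM, and the interval of its ratio of 0.82 (0.65 to 1.03) held 1. It was 1.19 (0.91 to 1.57) without the top cells, of 23 UMIs with h219-LLG and 50 UMIs in control, and 2.48 (1.64 to 3.89) without the top 3 cells of each library, so its direction there rested on those cells. Chil3 levels in the Spp1 or Arg1 macrophages were 486.6 and 466.7 CPM, a ratio of 1.04. In dendritic cells 37 of 43 h219-LLG UMIs and all 34 control UMIs lay in 1 cell each.

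Mrc1 encodes the mannose receptor CD206, an endocytic receptor used as the standard surface marker of M2 macrophages. In C1q macrophages it had 662 UMIs with h219-LLG and 263 in control, or 484.6 CPM (448.4 to 523.0) and 389.4 CPM (343.7 to 439.4), a ratio of 1.25 (1.08 to 1.44). Many cells contributed: 48.4% of h219-LLG and 42.2% of control cells had a UMI (B cells 0.537% and 0.180%), and the top cells held 49 and 38 UMIs. The ratio was 1.33 without those cells and stayed above 1 under 16 of 16 alternative settings, between 1.10 and 1.46. The Spp1 or Arg1 macrophages had 119 and 104 Mrc1 UMIs, or 244.3 and 330.1 CPM, a ratio of 0.74 (0.56 to 0.97). There 1 control cell held 65 of the 104 UMIs and the h219-LLG top cell 20, and without both the ratio was 1.64. Classical monocytes held 78 Mrc1 UMIs in 23 of 199 cells (11.6%, exact binomial interval 7.47% to 16.8%) with h219-LLG and 0 in 69 cells in control, which allows a UMI in up to 4.35% of cells by the limit of 3 counts and in up to 5.21% by the exact binomial interval. This is at least 12.4-fold higher against a floor of 3 counts in the control gate. Patrolling monocytes had 0 Mrc1 UMIs in 50 h219-LLG cells and 14 UMIs in 67 control cells, of which 12 lay in 1 cell. In dendritic cells Mrc1 had 95 and 17 UMIs, or 69.4 and 25.7 CPM, a ratio of 2.70 (1.60 to 4.82). Conventional dendritic cells type 2 held 88 of the 95 and all 17, and within them the ratio was 1.88.

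Cd163 encodes the scavenger receptor for hemoglobin bound to haptoglobin. It was the rarest of the 10 genes, with 50 UMIs in 35 of the kept h219-LLG cells and 18 UMIs in 15 of the kept control cells. C1q macrophages held 11 UMIs in 4 h219-LLG cells and 1 UMI in 1 control cell. Plasmacytoid dendritic cells held 2 UMIs in 35 h219-LLG cells and 8 UMIs in 102 control cells. No gate reached the minimum of 50 UMIs, so no level of Cd163 was compared. At this depth the receptor was rarely detected in any of these cells.

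Trem2 encodes a lipid sensing receptor of macrophages and microglia. It was spread over many cells, found in 63.5% of h219-LLG and 62.7% of control C1q macrophages, against 0.269% and 0% of B cells. Trem2 had 338 and 224 UMIs there, or 247.4 CPM (221.7 to 275.3) and 331.6 CPM (289.6 to 378.0), a ratio of 0.75 (0.63 to 0.89). The top cells held 18 and 12 UMIs, and the ratio was 0.74 without them. It was below 1 under 16 of 16 alternative settings, between 0.65 and 0.86. In monocytes Trem2 stood at 65.1 and 82.7 CPM, a ratio of 0.79 (0.62 to 1.00), and in the Spp1 or Arg1 macrophages at 133.5 and 98.4 CPM, a ratio of 1.36 (0.87 to 2.15). Both of those intervals held 1.

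Saa3 encodes serum amyloid A3, an acute phase protein made by macrophages and other cells. In C1q macrophages it had 1856 UMIs with h219-LLG and 15 in control, or 1359 CPM (1298 to 1422) and 22.2 CPM (12.4 to 36.6), a ratio of 61.2 (37.0 to 110). Only 18 of 159 h219-LLG cells and 2 of 102 control cells had a UMI, and 1 h219-LLG cell held 950 of the 1856. Of those 18 cells, 13 held UMIs of Gata6, Timd4 or Prg4, markers of macrophages of the peritoneal and pleural cavities, while 0 of the 141 cells without Saa3 did. All 3 of these markers were found in the h219-LLG gate and 2 in the control gate, where Prg4 was at 0. Their summed level was 660 CPM with h219-LLG and 2.96 CPM in control, led by Prg4 with 852 and 0 UMIs.

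The 13 h219-LLG cells with at least 3 UMIs of these cavity markers (0 cells lay near that limit, and 0 control cells reached it) held 1839 of the 1856 Saa3 UMIs. The limit was set after the values were seen. Saa3 stood at 8765 CPM in them and at 14.7 CPM in the other 146 h219-LLG cells, beside 22.2 CPM in control. Without them the ratio was 0.66 (0.31 to 1.42) on 17 and 15 UMIs. These cells were deep, with a median of 16425 UMIs against 4935 in the other h219-LLG cells, and they also held 306 of the 909 Arg1 UMIs and 599 of the 1462 Thbs1 UMIs, but only 4 of the 662 Mrc1 UMIs. Without them the ratio of Arg1 was 1.11 (0.97 to 1.27), an interval that held 1, the ratio of Thbs1 was 0.46 (0.42 to 0.50) and that of Mrc1 was 1.46 (1.27 to 1.69). Retnla was 5.88, Trem2 0.80, Spp1 0.61, Chil3 0.89 and Vegfa 0.82 in the same cells. In monocytes, Saa3 had 98 UMIs with h219-LLG, 64 of them in 1 cell, and 7 in control, a ratio of 9.40 (4.40 to 24.0).

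**Figure D3:**
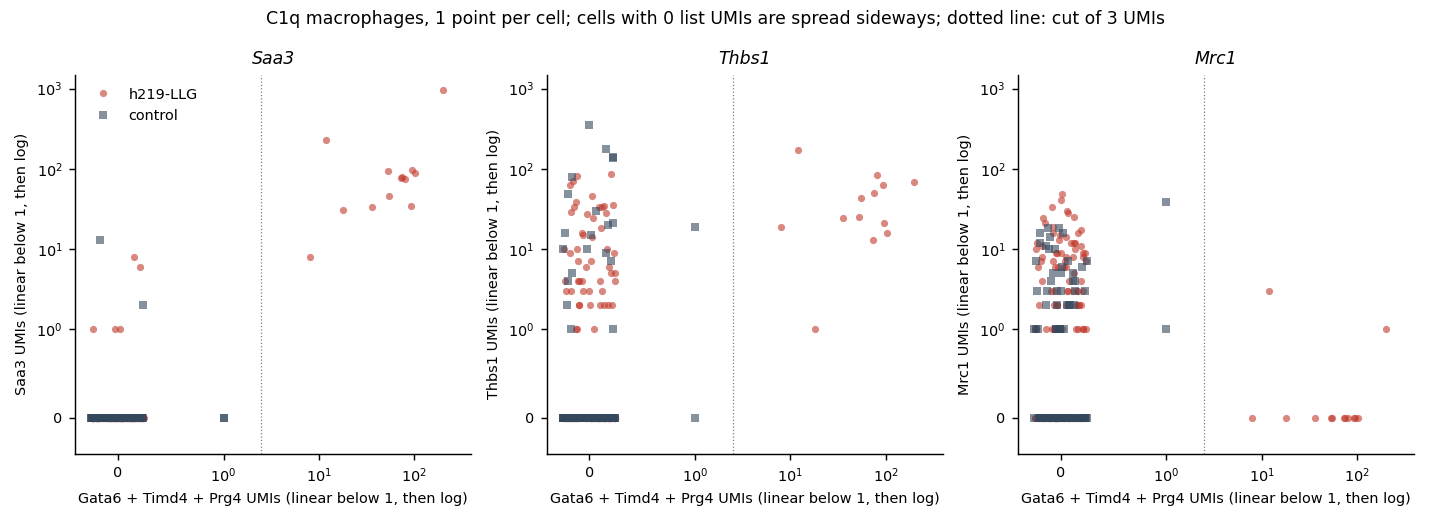
UMIs of Saa3, Thbs1 and Mrc1 (vertical axes) against summed UMIs of the cavity markers Gata6, Timd4 and Prg4 (horizontal axes) in each C1q macrophage, h219-LLG and control. The 13 h219-LLG cells with at least 3 marker UMIs stand apart, with 1839 of 1856 Saa3 UMIs, 599 of 1462 Thbs1 UMIs and 4 of 662 Mrc1 UMIs.

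Spp1 encodes osteopontin, a secreted matrix protein and chemokine-like ligand of integrins and CD44. In C1q macrophages it had 2379 UMIs with h219-LLG and 2249 in control, or 1741 CPM (1672 to 1813) and 3330 CPM (3193 to 3470), a ratio of 0.52 (0.49 to 0.55). The top 3 h219-LLG cells held 926, 749 and 199 UMIs and the top 3 control cells 1290, 353 and 241, so a handful of cells in each library set the level. Without the top cell of each library the ratio was 0.74. Cells with at least 5 UMIs of 6 interferon response genes, a limit set after the values were seen, were 23 h219-LLG cells and 5 control cells, and they held 66 and 1303 Spp1 UMIs. Of the 1303, 1290 lay in the top control cell, which also held 38 of the 39 Arg1 UMIs of the control interferon cells. Among the remaining 136 and 97 cells Spp1 stood at 2010 and 1614 CPM, a ratio of 1.25 (1.15 to 1.35), a turn of direction that came with leaving out that 1 control cell. Arg1, with 4 and 39 UMIs in the interferon cells, stood at 786.6 and 476.0 CPM in the remaining ones, a ratio of 1.65. Near that limit lay 10 h219-LLG cells and 5 control cells.

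In the Spp1 or Arg1 macrophages Spp1 went the other way, with 2180 and 596 UMIs, or 4476 and 1892 CPM, a ratio of 2.37 (2.16 to 2.59). Of the 7 genes measured there only Spp1 was at least 2-fold higher, beside 3.16% of all measured genes. Since the gate chooses cells by Spp1 and Arg1, this call was not read as a result, and the median below includes both genes. None of the 7 was at least 2-fold lower, against 3.51%, and their median log2 ratio was 0.06 beside -0.03. Since the gate uses Spp1, it was also read in cells gated by Arg1 alone, 21 with h219-LLG and 13 in control among myeloid cells with Lyz2 that were neither C1q macrophages nor dendritic cells. There it stood at 2383 and 1874 CPM. In the 316 and 182 cells with fewer than 3 Arg1 UMIs it stood at 602.5 and 170.2 CPM. Arg1 in cells gated by Spp1 alone (37 and 21 cells) stood at 665.0 and 309.8 CPM, and in the cells with fewer than 3 Spp1 UMIs (300 and 174) at 116.8 and 169.7 CPM. In the pool gated without either gene, Spp1 had 4535 h219-LLG and 2841 control UMIs, a ratio of 1.01 (0.96 to 1.06) and of 1.47 without the top cell of each library.

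Thbs1 encodes thrombospondin 1, a matrix glycoprotein that activates TGFβ and restrains blood vessel growth. Its CPM was below control in both macrophage gates, but in C1q macrophages this depended on which cells were left out. C1q macrophages had 1462 and 1106 UMIs, or 1070 CPM (1016 to 1127) and 1637 CPM (1542 to 1737), a ratio of 0.65 (0.60 to 0.71). Here 1 control cell held 356 UMIs and the top h219-LLG cell 171, and the ratio was 0.84 without them and 1.26 (1.13 to 1.41) without the top 3 cells of each library. Without the 13 cavity marker cells, all of them h219-LLG, it was 0.46 (0.42 to 0.50). The share of cells with a UMI ran against the CPM, 40.3% with h219-LLG and 20.6% in control, so no order was read from it. The Spp1 or Arg1 macrophages had 1184 and 1293 UMIs, or 2431 and 4105 CPM, a ratio of 0.59 (0.55 to 0.64), with top cells of 95 and 346 UMIs. Classical monocytes stood at 953.6 and 1330 CPM, a ratio of 0.72, and patrolling monocytes at 409.1 and 400.5 CPM, a ratio of 1.02. In dendritic cells Thbs1 had 91 and 19 UMIs, a ratio of 2.31 (1.40 to 4.01), with 60 of the 91 in 1 cell. The pooled ratio was 0.74 and stayed below 1 under 16 of 16 alternative settings.

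Vegfa encodes the main growth factor of blood vessels and is a textbook target of low oxygen. In C1q macrophages it had 106 and 73 UMIs, or 77.6 CPM (63.5 to 93.8) and 108 CPM (84.7 to 136), a ratio of 0.72 (0.53 to 0.98). The top cells held 12 and 19 UMIs, and the ratio was 1.28 without the top 3 cells. It was above 1 under 4 of 16 alternative settings and below 1 under 12. The share of C1q macrophages with a Vegfa UMI ran against the CPM, 15.7% with h219-LLG and 9.80% in control. In monocytes it stood at 38.2 CPM (30.6 to 47.0) and 64.6 CPM (52.6 to 78.6), a ratio of 0.59 (0.44 to 0.80) that was below 1 under 16 of 16 alternative settings. Of monocytes 12.9% and 23.5% had a Vegfa UMI. Vegfa levels in the Spp1 or Arg1 macrophages were 308.0 and 285.7 CPM, a ratio of 1.08 (0.83 to 1.42). Vegfa was also found in 1.97% of h219-LLG and 3.72% of control B cells and in cells of the melanoma gate, at 85.7 and 308.5 CPM. In the melanoma gate 1 control cell held 129 of 156 Vegfa UMIs. Only 5 of 27 h219-LLG and 3 of 24 control cells of that gate had any.

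**Figure D4:**
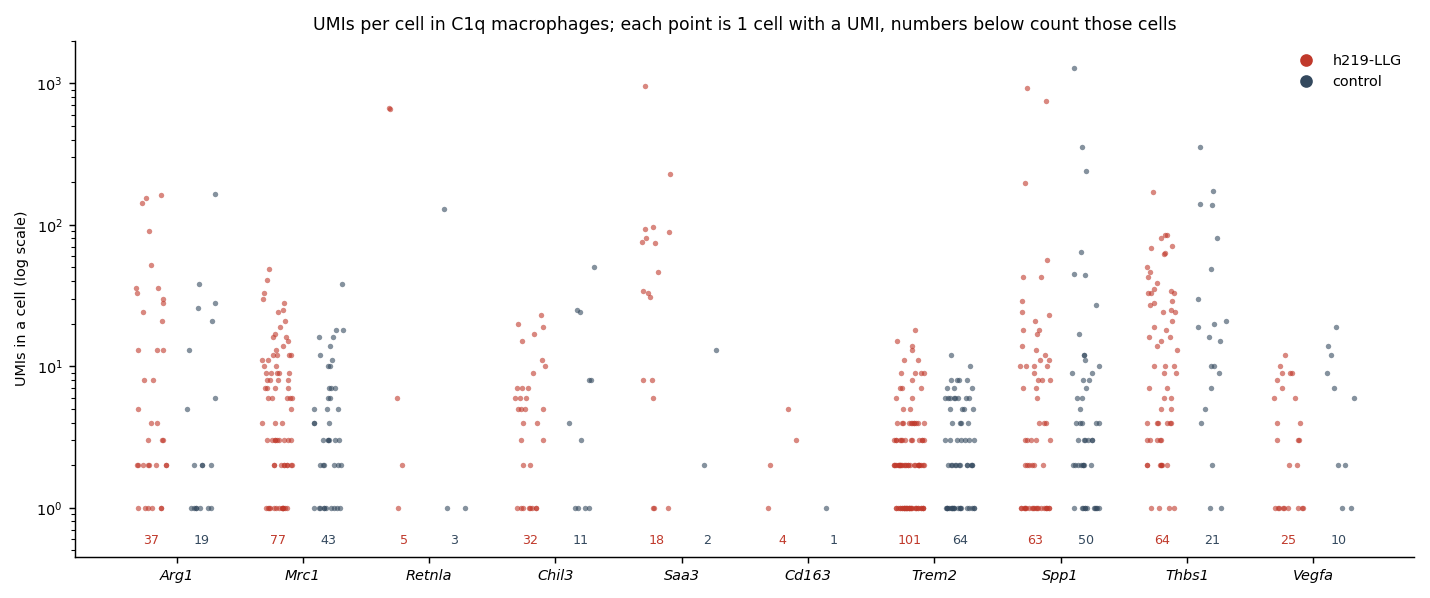
UMIs of each gene in single C1q macrophages with at least 1 UMI (log axis), h219-LLG left of control, with the number of such cells beside each group. Retnla rests on 5 and 3 cells and Saa3 on 18 and 2, while Mrc1 (77 and 43 cells) and Trem2 (101 and 64) are spread over many cells.

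In monocytes 6 of the 10 genes were measured. Mrc1 (ratio 3.74, 2.10 to 7.16) and Saa3 were at least 2-fold higher with h219-LLG, as were 2.11% of the measured genes, and 0 were at least 2-fold lower (1.12%). Their median log2 ratio was 0.20 beside 0.04 over all measured genes. Of 8 genes of dissociation stress 3 were higher and 5 lower in the same cells, where 54.6% of all measured genes were higher. The heat shock genes Hspa1a, at 143.6 CPM with h219-LLG and 1174 CPM in control (ratio 0.12), and Hspa1b (0.11) were lowest, and Fos (1.52) and Dusp1 (1.38) highest. Their part in the ratios above was not tested. In dendritic cells 6 genes were measured, 5 of them above 1, as were 45.3% of all measured genes. Mrc1, Retnla and Thbs1 were at least 2-fold higher (background 2.62%) and 0 at least 2-fold lower (0.865%), although Retnla and most of Thbs1 came from 1 h219-LLG cell each. The median log2 ratio was 1.05 beside -0.04. In the pool gated without any of the genes, 9 were measured and 6 were above 1, as were 59.3% of all measured genes. Retnla (ratio 6.38) and Saa3 (47.7) were at least 2-fold higher (2.99%) and 0 at least 2-fold lower (0.875%), and the median was 0.32 beside 0.07. Under 16 alternative settings the Saa3 ratio in the pool lay between 3.21 and 54.5. There Mrc1 stood at 1.37 (1.22 to 1.55), Chil3 at 1.25, Trem2 at 0.85 and Vegfa at 0.83.

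**Figure D5:**
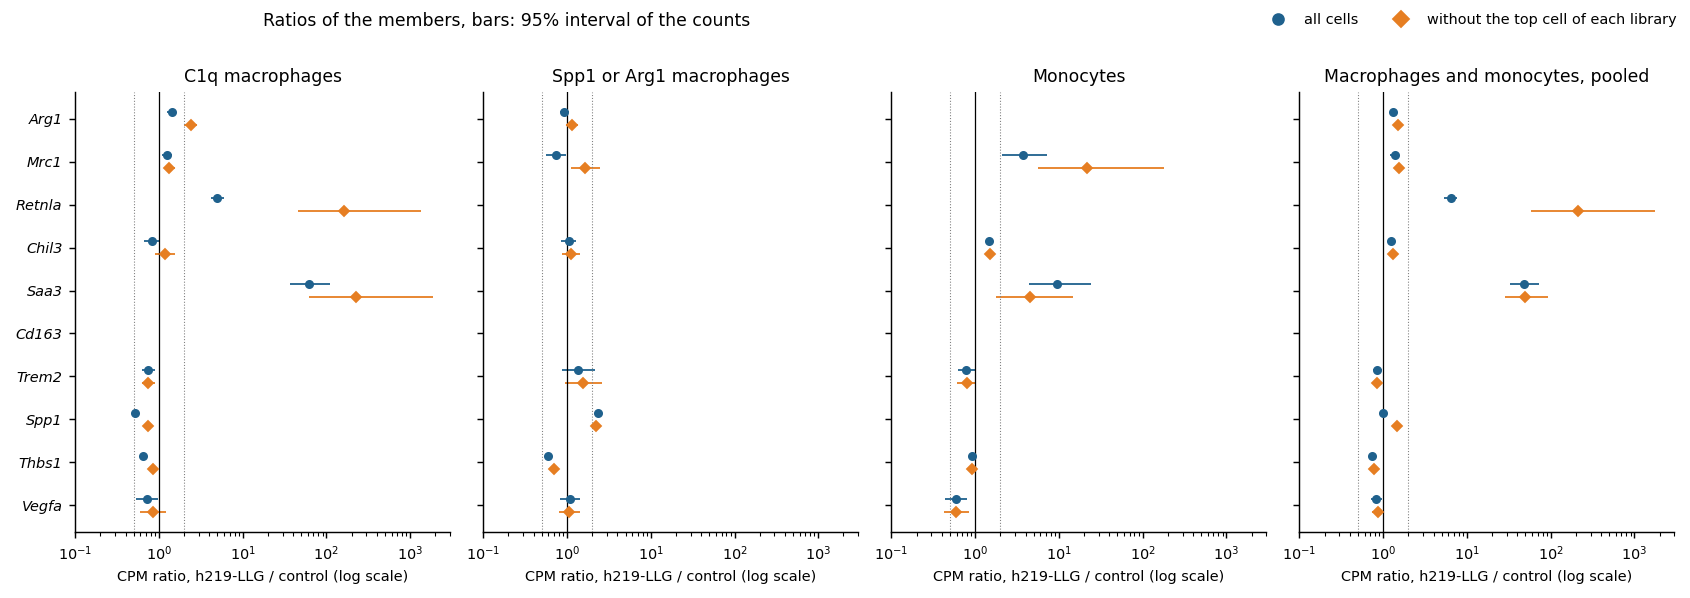
Ratio of h219-LLG over control (log axis, 95% interval from the binomial split of the UMIs) for the measured genes in C1q macrophages, Spp1 or Arg1 macrophages, monocytes and the pool gated without any of the genes. Circles use all cells and diamonds leave out the cell with most UMIs in each library. Mrc1 in the Spp1 or Arg1 macrophages lies on opposite sides of 1, with 0.74 for all cells and 1.64 without the top cells.

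Cells differed in how many of the 10 genes they held. The median was 3 in h219-LLG and 2 in control C1q macrophages, and 4 in the Spp1 or Arg1 macrophages of both libraries. Cells of the latter gate hold at least 1 of the genes by its rule. They were also deeper, with medians of 10516 and 10924 UMIs, so their higher count was not read as a result. At least 5 genes were found in 14.5% of h219-LLG and 7.84% of control C1q macrophages, gates whose median depths differed (5434 and 3892 UMIs). Within h219-LLG C1q macrophages, Thbs1 was found in 29 of 37 cells with Arg1 (78.4%) and in 35 of 122 without it (28.7%). It was found in 15 of 18 cells with Saa3 (83.3%) and in 49 of 141 without it (34.8%). Mrc1 was found in 27.8% of cells with Saa3 and in 51.1% without it. These counts include the 13 deep cavity marker cells, with a median of 16425 UMIs. All 13 held Saa3 and Thbs1, 9 held Arg1 and 2 held Mrc1. The shares were not given apart from those cells or at equal depth. Thinning each cell to 1000 UMIs, which left out 7 h219-LLG and 9 control cells, gave Arg1 in 15.8% and 9.68% of C1q macrophages, Mrc1 in 28.3% and 24.7%, Trem2 in 26.3% and 37.6% and Spp1 in 23.7% and 32.3%. Thbs1 was then found in 28.29% and 13.98%, against the order of its CPM.

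Over the 9 myeloid gates in both libraries (18 points that share cells, library and depth), the genes of most similar pattern by Pearson correlation of log2(CPM + 1), a description only, were Pdpn for Arg1 (0.88) and for Spp1 (0.91), Plau for Mrc1 (0.92) and Fcna for Retnla (0.81). They were Pla2g7 for Chil3 (0.97), Snx2 for Saa3 (0.85), Bola2 for Trem2 (0.95), Rab20 for Thbs1 (0.98) and Fcgr1 for Vegfa (0.92). Arg1 was itself among the 3 genes closest to Spp1 (0.85). The Spp1 or Arg1 gate chooses its cells by these genes and takes them out of later gates. Their likeness to each other, and the Pdpn match of both, is thus partly set by the rule and was not read as a result.

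Other genes of alternative activation also lay on both sides of 1. Of a list of 35, 25 were measured in C1q macrophages, 13 higher (60.1% of all measured genes were) and 12 lower with h219-LLG, with 3 at least 2-fold higher and 3 at least 2-fold lower. Their median log2 ratio was 0.11, beside 0.12 over all measured genes. Fn1, the matrix protein fibronectin, had 4864 and 717 UMIs (ratio 3.35) and Ccl24, a chemokine for eosinophils induced by IL-4, a ratio of 3.73. Mmp12, the macrophage elastase, had 152 and 608 UMIs (ratio 0.12) and the chemokine Ccl8 139 and 321 UMIs (ratio 0.21). What part of the UMIs of these listed genes lay in single cells or in the cavity marker cells was not read gene by gene. In the Spp1 or Arg1 macrophages 19 were measured, 8 higher (48.0% of all measured genes) and 11 lower, with Ccl24 (4.11) and the lipase gene Lpl (3.07) at the top and Ear2 (0.027, on 2 and 48 UMIs) and Il1rn (0.34) at the bottom. In monocytes 7 of 18 were higher (54.6% of all), led by Clec10a (1.98) and F13a1 (1.90), and Hmox1 (0.31) and Cd36 (0.33) were lowest. In dendritic cells 11 of 17 were higher (45.3% of all), among them the lectin gene Mgl2 with 229 and 8 UMIs (ratio 13.8) and Ear2 (6.48), with Cd36 (0.68) and Il4ra (0.72) lowest. In the pool 12 of 27 were higher (59.3% of all) and 15 lower.

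Genes of low oxygen were lower in C1q macrophages, where 0 of 9 measured were higher with h219-LLG and 4 were at least 2-fold lower, beside 60.1% and 1.33% of all measured genes. Their median log2 ratio was -0.89. Slc2a1, the glucose transporter, had the highest ratio among them (0.70), with Ldha at 0.69, and Hilpda (0.34) and the glycolysis gene Pgk1 (0.42) had the lowest. In the Spp1 or Arg1 macrophages 6 of 9 were higher (48.0% of all measured genes), in monocytes 1 of 8 (54.6%), in dendritic cells 5 of 7 (45.3%), in the pool 0 of 9 (59.3%) and in the myeloid barcodes with T cell UMIs 0 of 9 (59.4%). Of the list of classical activation 4 genes were measured in C1q macrophages, Cxcl10 (ratio 3.54), Cd86 (1.24), Il1b (0.76) and Tnf (0.30). All 4 measured interferon response genes were higher there, with Ifit1 at 4.57, Rsad2 at 4.52, Irf7 at 2.85 and Isg15 at 2.29.

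Near copies could share reads with 3 of the genes. In kept cells Chil4 had 0 UMIs in both libraries, Saa1 1 and 0, Saa2 and Saa4 0, and Retnlb 2 and 1. Chil1 had 77 UMIs in 28 h219-LLG cells and 7 UMIs in 5 control cells. Retnlg, a neutrophil gene of the Retnla family, had 3960 and 1133 UMIs, and Retnla in neutrophils was 0% of its h219-LLG and 0.513% of its control UMIs.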

How the data were processed

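The files deposited by the authors hold raw UMI counts, a whole number for each gene in each barcode called as a cell. Cell Ranger 5.0.0 and mm10 are named in the submitters' processing notes. Barcodes were kept if they had 200 genes and 500 UMIs or more and less than 10% mitochondrial UMIs. The highest scoring 0.8% per 1000 barcodes by simulated doublets (2000 genes, 30 components, 20 neighbors) were removed. Gates used marker UMIs, for example a sum of at least 3 for C1qa, C1qb and C1qc with 2 of the 3 genes, or at least 3 for Spp1 and Arg1 with Lyz2 at least 5. Counts were summed per library and gate and divided by the gate's total (CPM). Intervals are exact Poisson, exact binomial or, for ratios, from the binomial split of the counts, at 95%. All 10 genes are named in every gate, with full values from 50 UMIs, and the 2 highest and 2 lowest genes of each list, though not for every gate and list. The T cell markers Trac and Trbc2 were not used here. Members and lists were chosen with earlier results of these data known. Python 3.11.15, numpy 2.4.6, scipy 1.17.1, pandas 2.3.3, scikit-learn 1.9.0 and matplotlib 3.10.9 were used. Interval and gating steps were run on simulated counts, Poisson counts for the intervals and cells drawn from the mean profile of a gate for the gates. Such counts lack the concentration of UMIs in single cells described above, so they cannot check the intervals for it. Coordinates are of GENCODE vM21. Alternatives changed scaling, minimum UMIs, gates, their order, doublets, mitochondrial limits, depth and single cells.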

Additional observations from a re-analysis of the deposited data

Results flagged for a closer look

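For 4 genes the ratio of h219-LLG over control lay above 1 in one gate and below 1 in another, with counting intervals on opposite sides of 1. Mrc1 was 3.74 in monocytes and 0.74 in the Spp1 or Arg1 macrophages, where it was 1.64 without the top cell of each library. Chil3 was 1.46 in monocytes and 0.61 in dendritic cells, where it came from 1 cell per library for the most part. Spp1 was 2.37 in the Spp1 or Arg1 macrophages and 0.52 in C1q macrophages. The first of these gates chooses its cells by Spp1, so this pair was not read as a result. Thbs1 was 2.31 in dendritic cells, where 1 cell held 60 of the 91 h219-LLG UMIs, and 0.59 in the Spp1 or Arg1 macrophages. With 1 library per condition none of these differences was tested.

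The myeloid barcodes left out of the gates for their T cell UMIs (130 with h219-LLG and 85 in control, with medians of 20528 and 21523 UMIs and of 11 and 12 T cell marker UMIs) held UMIs of the same genes, and 6 of the 9 measured there were higher with h219-LLG (66.7%), as were 59.4% of all measured genes. The ratio was 1.15 for Arg1 (1868 and 1017 UMIs), 1.30 for Mrc1 (801 and 386), 9.51 for Retnla (775 and 51, of which 451 and 50 lay in 1 cell each), 1.30 for Chil3, 6.40 for Saa3 (327 and 32, with 174 and 16 in 1 cell each) and 1.22 for Trem2. Of the 327 Saa3 UMIs, 177 lay in 3 h219-LLG barcodes with at least 3 UMIs of the cavity markers, a limit that 0 control barcodes reached. Near that limit lay 3 h219-LLG barcodes. In the other 127 h219-LLG barcodes Saa3 stood at 48.0 CPM, beside 15.9 CPM in control. Whether the barcodes with T cell UMIs are 1 cell or 2 was not tested. Trem2 lay above 1 here and below 1 in C1q macrophages (0.75), while Spp1 (0.66) and Thbs1 (0.55) lay below 1 in both.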

How the results depend on the processing

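No paired analysis was possible because there was 1 library per condition. Of the ratios under alternatives, 430 stayed within the counting interval, 115 moved beyond it and 23 changed direction. A change of direction was counted only where the main interval left out 1, so turns of other ratios are among the 430 and 115. For example, Chil3 in C1q macrophages (0.82) lay above 1 under 4 of 16 alternatives. Spp1 in the pool (1.01) lay below 1 under 7 of 16. In C1q macrophages Saa3 became 0.66 without the cavity marker cells, Spp1 1.25 without interferon cells, Thbs1 1.26 without the top 3 cells, and Vegfa 1.96 as a mean over cells, 1.20 with lymphoid barcodes included, 2.69 after thinning and 1.28 without the top 3 cells. In the Spp1 or Arg1 macrophages Mrc1 became 1.64 without the top cell, 3.95 without the top 3 and 1.51 without interferon cells, where Thbs1 became 1.06. In monocytes Thbs1 became 1.08 as a mean over cells, 1.01 with stricter gates and 1.09 after thinning. In dendritic cells Chil3 gave no value without the top cell or the top 3 cells, since no control UMI was left, and became 1.045 with lymphoid barcodes, and Thbs1 became 0.66 with looser gates and 0.77 without interferon cells. In the pool Arg1 (0.95) and Mrc1 (0.97) after thinning, Trem2 with lymphoid barcodes (1.0) and Vegfa (1.13 as a mean over cells, 1.17 after thinning, 1.02 without interferon cells) changed.

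The number of the genes at least 2-fold apart in either direction was 2 in C1q macrophages (4 without the top 3 cells), 1 in the Spp1 or Arg1 macrophages (0 as a mean over cells or with lymphoid barcodes, 2 with no minimum or without the top 3 cells, 3 with stricter gates), 2 in monocytes (4 with no minimum, 0 after thinning, 1 without interferon cells), 3 in dendritic cells (6 with no minimum, 5 with doublets kept or under 20% mitochondrial UMIs, 0 after thinning or without interferon cells) and 2 in the pool (4 without interferon cells). Of the 35 other genes it was 6 in C1q macrophages (13 with no minimum), 5 in the Spp1 or Arg1 macrophages (13 with no minimum, 2 after thinning, 3 without interferon cells), 2 in monocytes (6 as a mean over cells, 4 with a minimum of 20, after thinning or without the top 3 cells, 13 with no minimum, 5 with lymphoid barcodes), 6 in dendritic cells (12 with no minimum, 0 after thinning, 11 without the top 3 cells) and 6 in the pool (11 with no minimum). The 1 gene counted in the Spp1 or Arg1 macrophages was Spp1, which that gate uses. The settings that leave out interferon cells, the top 3 cells and the cavity marker cells, and the separate sum of barcodes with T cell UMIs, were chosen after seeing the data.

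Depth and the number of cells limit these values. Single h219-LLG C1q macrophages held 665 of the gate's 1330 Retnla UMIs and 950 of its 1856 Saa3 UMIs, intervals do not cover the spread between cells, mice or libraries, and the antibody and the library cannot be told apart. Cd163 was too rare to compare. After thinning, a gene at 1 UMI in a gate carries no change.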
